A study of Mus musculus with 53 samples.

Results

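Rest, Myt1, Myt1l and St18 encode nuclear repressors that are known for keeping cells from expressing the genes of another fate, and their transcripts were followed in mouse cerebella from which Insm1 or Tead1 and Tead2 had been deleted in the Atoh1 lineage. The 4 genes were taken by symbol and each matched 1 row among 55573 genes of the P2 bulk tables and 1 row among 57010 genes of the P7 single-cell matrices. Their identifiers are ENSMUSG00000029249 for Rest, ENSMUSG00000010505 for Myt1, ENSMUSG00000061911 for Myt1l and ENSMUSG00000033740 for St18. In GRCm38.p6, Rest lies at chr5:77265494-77286432, Myt1 on chromosome 2, Myt1l on chromosome 12 and St18 on chromosome 1.

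REST, a zinc finger protein, binds RE1 elements near neuronal genes and recruits the CoREST and SIN3A corepressor complexes, which carry histone deacetylases and the demethylase KDM1A. It is abundant in non-neuronal cells and neural progenitors and is turned down as neurons form. MYT1, MYT1L and ST18 (also called MYT3) form a family of zinc finger proteins that bind a short AAGTT core, are expressed in developing neurons or oligodendrocyte precursors, and are known for repressing progenitor, Notch pathway and non-neuronal genes. Granule cell progenitors of the external granule layer express Atoh1, divide after birth and form the granule neurons of the cerebellum.

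The study asked how the neural identity of these cells is kept. Controls of the Insm1 line were Insm1fl/fl and mutants were Atoh1Cre; Insm1fl/fl. Controls of the Tead1/2 line were homozygous for the floxed alleles of both genes (Tead1fl/fl and Tead2fl/fl), and mutants carried Atoh1Cre in addition. All controls used here therefore carried floxed alleles, and none carried Cre. Whole-cerebellum RNA was sequenced at postnatal day 2 (P2) from individual pups, with 4 controls and 4 mutants of the Insm1 line and 3 controls and 4 mutants of the Tead1/2 line. Single cells were profiled at P7 with the Parse Evercode split-pool method from 2 controls and 3 mutants of each line, 1 cerebellum per library. Library 1 of each P7 group held all lobules, while libraries 2 and 3 lacked lobules IX and X. Atoh1Cre is known to act in the granule lineage and in few other cerebellar cells, so the bulk samples also hold cells that kept the floxed genes. No source used here names the strain.

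The P2 libraries held 28066643 to 64518751 expected counts, and the P7 libraries 98416728 to 226631912 UMIs (counted molecules). The labels name a target of about 100000 cells. Of 262655 to 337046 barcodes per P7 library, 4779 to 10710 passed the depth filters and 2570 to 5921 were kept after doublet removal, 47642 cells in all; no barcode was shared between libraries. The cells fell into clusters named only from marker genes, so each name carries "-like". Control cells of the granule lineage showed Insm1 at 62.7 to 69.4 CPM (per-million counts) in the Insm1 line, against 6.28 to 20.6 in its mutants, and Tead2 at 32.2 to 34.1 against 11 to 12.8 in the Tead1/2 line. Tead1 was higher in Tead1/2 mutants, 1296 to 1400 against 590.8 to 595.2 CPM, but no source used here names the deleted exons, so this value checks no label. At P2, Insm1 stood at 30.8, 31.4, 56.5 and 71.5 CPM in controls of the Insm1 line, a spread of 20 CPM (SD), and at 8.39 to 16.1 in the mutants (log2 change -1.91, SE 0.30, edgeR adjusted p = 0.0194). In the library labelled Tead1/2 mutant 4, Tead2 stood at 26.2 CPM, against 17.6 to 20.1 in the other mutants and 21.5 to 25.7 in the controls, which lay below the 78.8 to 90.8 of the Insm1 controls. The 40 muscle markers summed to 79.2 CPM in that library, against 260.8 to 341.5 in the other 3 mutants and 79.6 to 86.8 in the controls. The P2 changes of Rest, Myt1, Myt1l and St18 within this line are therefore given with and without it.

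In the control cerebella at P7, Rest was lowest in neurons and highest in vascular and meningeal cells. P7 levels are CPM, that is UMIs of the gene over all UMIs of a class in 1 library, and a level is compared here only within a gene, because gene lengths differ. Over the 4 control libraries, Rest ran from 78.2 to 104.3 in meningeal fibroblast-like cells and from 70.5 to 116.3 in endothelial-like cells, from 44.8 to 72.3 in microglia-like cells and from 47.4 to 57.1 in astroglia-like cells. Each of these 4 classes overlapped the next in that order. Oligodendrocyte lineage-like cells followed at 14.8 to 35 and granule progenitor-like cells at 10.6 to 12. GABAergic interneuron-like cells, at 1.60 to 3.35, and granule neuron-like cells, at 0.72 to 1.43, were lowest, and their ranges did not overlap.

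Myt1 was highest in control oligodendrocyte lineage-like cells and granule neuron-like cells. It ran from 442.0 to 654.5 in the first and from 434.7 to 486.3 in the second, which overlapped, then from 226.7 to 274.6 in interneuron-like cells and from 89.8 to 101.8 in granule progenitor-like cells. Meningeal fibroblast-like, microglia-like, astroglia-like and endothelial-like cells reached 54.7 at most and overlapped one another.

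Myt1l, whose product is best known as a factor of postmitotic neurons, was highest in control interneuron-like cells at 1677 to 1746. Granule neuron-like cells followed at 509.3 to 694.8. Oligodendrocyte lineage-like cells (142.1 to 300.8) and granule progenitor-like cells (134.3 to 181.6) overlapped, and astroglia-like cells held 65.7 to 100.3. Meningeal fibroblast-like, microglia-like and endothelial-like cells ranged from 0 to 86.6.

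St18 was high in control granule neuron-like cells, at 1028 to 1160, and lower in granule progenitor-like cells (476.0 to 496.7) and interneuron-like cells (416.0 to 526.8), which overlapped. Its level in oligodendrocyte lineage-like cells was split by line: 211.1 and 216.1 in the Insm1 controls against 1500 and 1988 in the Tead1/2 controls. Non-neural classes and astroglia-like cells ranged from 0 to 119.4.

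**Figure D1:**
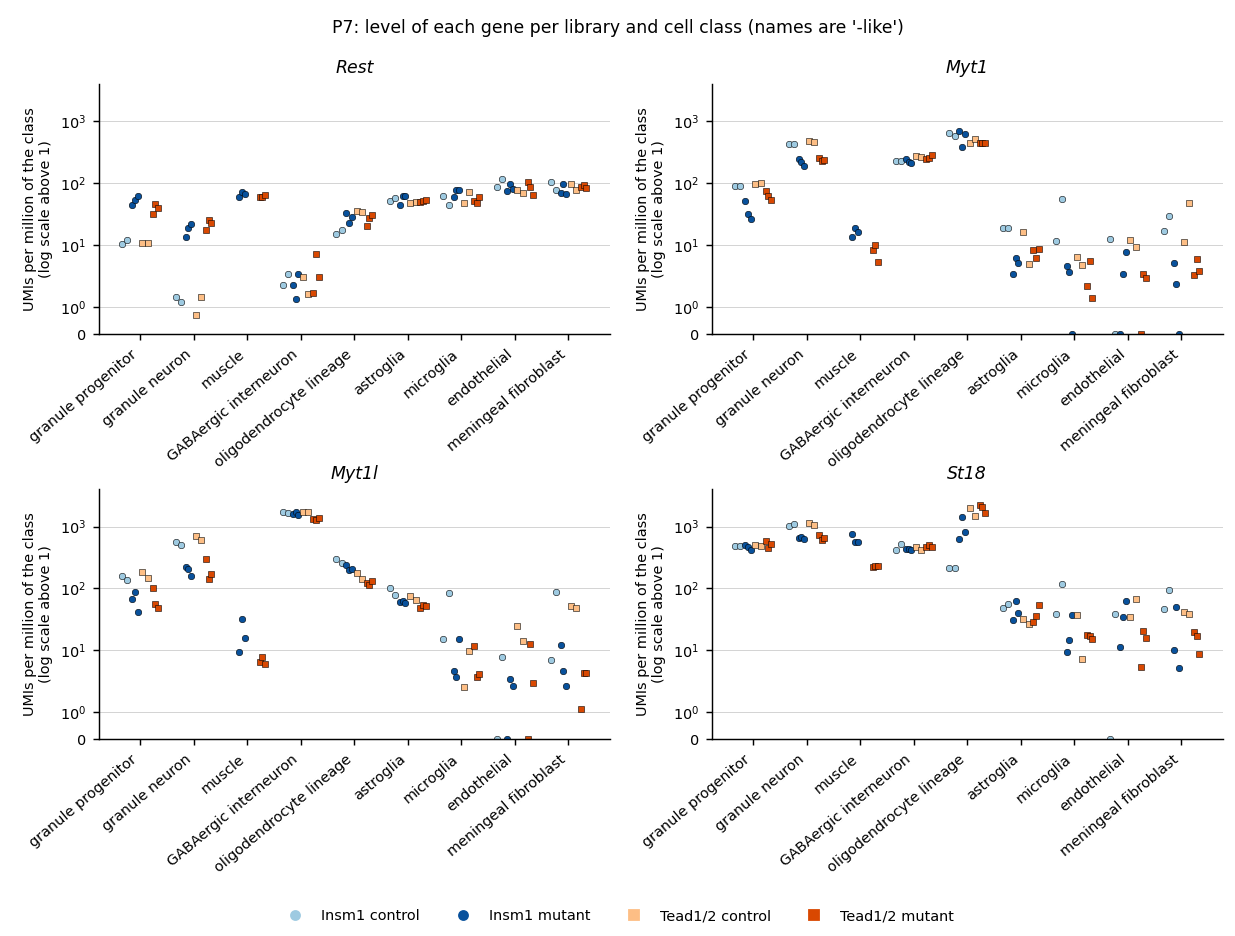
Each point is 1 P7 library; the vertical axis gives the level of the gene in CPM UMIs of the class, on a log scale above 1, and the horizontal axis the cell classes. Libraries with under 10 cells of a class are not drawn. Rest lies at 0.72 to 1.43 in control granule neuron-like cells and at 13.5 to 25.3 in mutant ones, while Myt1, Myt1l and St18 run lower in the mutant neurons than in the control neurons.

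Across the 8 classes that control cerebella held, the log2 levels of Myt1 and St18 ran together (Pearson r = 0.98), and Rest ran against Myt1 (r = -0.80), Myt1l (r = -0.90) and St18 (r = -0.83). Myt1l correlated with Myt1 at r = 0.85 and with St18 at r = 0.81. These values describe 8 class means from the same 4 libraries and carry no test. Among 12571 genes, the 5 most like Rest over the same classes were Hadhb and Irak1 (r = 0.99) and Npepl1, Erf and Wwc2 (r = 0.98). Those most like Myt1 were Phactr3 (r = 0.98), Pak3, Prkcz, Rims1 and St18. Those of Myt1l included Lingo1 (r = 0.98), Unc5c, Spink10 and Plppr4, and for St18 they were Kcnh8 (r = 0.99), Rims1, Olfm3, Myt1 and Pak3.

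In the granule lineage at P7, Rest rose and Myt1, Myt1l and St18 fell in the mutants of both lines. All 4 genes passed the test in the Insm1 line, where 18.5% of the 16452 genes tested did, and all 4 in the Tead1/2 line, where 20% did. A gene is called when its adjusted p from edgeR's quasi-likelihood test is under 0.05. Granule lineage means granule progenitor-like and granule neuron-like cells summed, and all 10 libraries entered 1 fit. Where groups are said not to overlap, here and below, this describes the libraries and carries no test. The share of all genes with such a split is not given.

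Rest measured 6.33 and 7.45 CPM in controls of the Insm1 line and at 29.0, 36.1 and 41.8 in the Insm1 mutants. In the Tead1/2 line it stood at 7.19 and 7.19 in the controls and at 25.9, 35.4 and 31.9 in the mutants. Every mutant lay above every control. The rise was 5.22-fold in the Insm1 line (log2 2.38, SE 0.17, edgeR adjusted p = 8.2e-07) and 4.23-fold in the Tead1/2 line (log2 2.08, SE 0.16, edgeR adjusted p = 1.7e-06).

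Myt1 stood at 250.1 and 236.6 in the Insm1 controls and at 151.6, 126.8 and 108.8 in the mutants, and at 233.3 and 242.2 against 154.5, 147.1 and 135.5 in the Tead1/2 line. The groups did not overlap, and the log2 change was -0.90 (SE 0.12, edgeR adjusted p = 0.00014) and -0.74 (SE 0.12, edgeR adjusted p = 0.00056). Myt1l stood at 350.1 and 292.3 against 145.1, 147.3 and 101.1 in the Insm1 line, and at 361.2 and 318.9 against 186.3, 100.9 and 102.9 in the Tead1/2 line. It had the largest fall of the family in both lines, by 1.27 (SE 0.24, edgeR adjusted p = 0.0022) and 1.41 (SE 0.24, edgeR adjusted p = 0.00089) on the log2 scale.

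St18 fell least. It stood at 732.6 and 746.6 against 578.9, 578.9 and 530.6 in the Insm1 line, and at 728.7 and 699.3 against 642.5, 527.2 and 586.5 in the Tead1/2 line. The groups did not overlap, and the log2 change was -0.38 (SE 0.09, edgeR adjusted p = 0.0088) and -0.32 (SE 0.09, edgeR adjusted p = 0.024). The call was lost without Insm1 control 2 in the Insm1 line (adjusted p = 0.071) and, in the Tead1/2 line, without control 1, control 2, mutant 2 or mutant 3 (adjusted p up to 0.159).

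None of the 4 changes differed between the lines by the test of the difference, in which 0.845% of genes passed. The Tead1/2 change minus the Insm1 change was -0.30 for Rest (95% interval -0.75 to 0.14), 0.16 for Myt1 (-0.17 to 0.49), -0.14 for Myt1l (-0.81 to 0.53) and 0.06 for St18 (-0.18 to 0.31), on the log2 scale.

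With the dissection as a term in the fit, an alternative chosen after the data were seen, all 4 genes passed in both lines. The log2 change was 2.32 and 2.01 for Rest (edgeR adjusted p = 7.9e-08 and 1.9e-07) and -0.37 and -0.30 for St18 (edgeR adjusted p = 0.0053 and 0.0155) in the Insm1 and Tead1/2 lines. Each direction was the same within each dissection, where 1 control meets 1 or 2 mutants and no test was run. With all lobules, the mutant level of Rest was 4.58 times the control level in the Insm1 line and 3.6 times in the Tead1/2 line, and without lobules IX and X it was 5.23 and 4.68 times. The ratios with all lobules were 0.606 and 0.662 for Myt1, 0.415 and 0.516 for Myt1l and 0.790 and 0.882 for St18. Without lobules IX and X they were 0.498 and 0.583 for Myt1, 0.425 and 0.320 for Myt1l and 0.743 and 0.796 for St18.

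**Figure D2:**
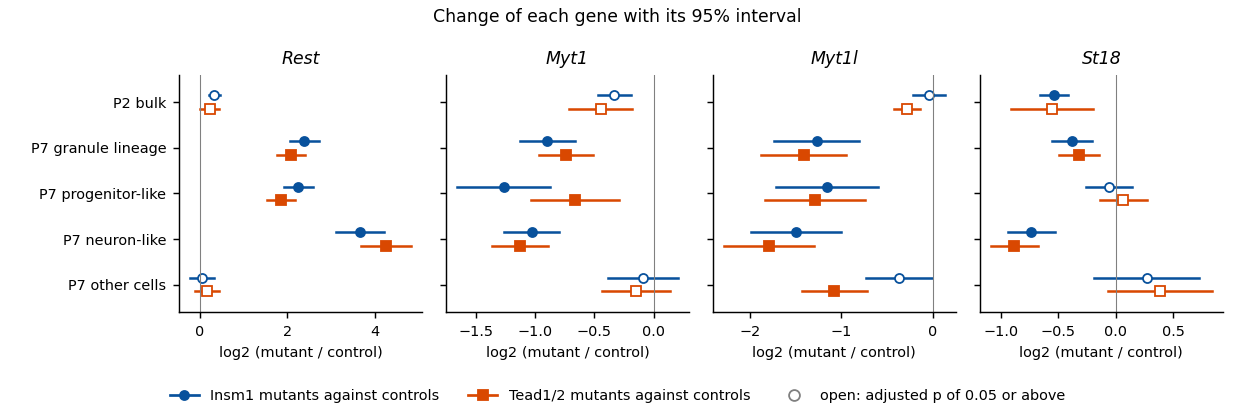
Points give the log2 change of mutants against their own controls and lines its 95% interval from a normal quantile, for each gene (panels). The rows are P2 bulk RNA and 4 sets of P7 cells. Filled points passed an adjusted p of 0.05. Rest lies right of 0 and Myt1 and Myt1l left of 0 in all granule rows, while St18 lies at -0.06 and 0.07 in progenitor-like cells.

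Split by stage, granule progenitor-like cells of the mutants held more Rest and less Myt1 and Myt1l, and 3 of the 4 genes passed in each line against 15.1% of genes in the Insm1 line and 17.5% in the Tead1/2 line. Rest stood at 10.6 and 12 against 44.9, 53.7 and 62.4 in the Insm1 line and at 10.7 and 10.7 against 32.3, 45.9 and 39.6 in the Tead1/2 line. The log2 rise was 2.25 (SE 0.17) and 1.85 (SE 0.17), with edgeR adjusted p = 2.3e-06 and 5.3e-06. Every mutant lay above every control.

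Myt1 stood at 89.8 and 90.6 against 51.7, 32.4 and 26.1 in Insm1 progenitors, a log2 change of -1.27 (SE 0.20, edgeR adjusted p = 0.00064). With the threshold that the doublet caller Scrublet sets itself, this became -1.11 and was not called (adjusted p = 0.060). When clusters whose top genes were tied between classes were named too, it was -0.83 (adjusted p = 0.00031). That setting counts cluster 14, with 802 control and 1502 mutant cells, as progenitor-like. It held 8 of the 14 progenitor markers and 5 interneuron markers, with Hhip and Tfap2b among its top genes. In Tead1/2 progenitors it stood at 97.2 and 101.8 against 75.3, 61.3 and 54.4, a change of -0.67 (SE 0.19, edgeR adjusted p = 0.028). The call was lost without control 1, control 2, mutant 2 or mutant 3, where the change was -0.70, -0.64, -0.63 and -0.55 (adjusted p 0.088 to 0.148). It moved more with the choice of cells, to -0.35 with the tied clusters named (adjusted p = 0.056), -0.44 with a minimum of 500 UMIs and 250 genes per barcode (adjusted p = 0.178) and -1.35 with Scrublet's own threshold (adjusted p = 0.0141). Myt1l stood at 159.2 and 134.3 against 66.7, 86.1 and 41.2 in the Insm1 line (log2 change -1.15, SE 0.28, edgeR adjusted p = 0.0145) and at 181.6 and 145.2 against 99.98, 56.2 and 47.3 in the Tead1/2 line (-1.29, SE 0.28, edgeR adjusted p = 0.0053). Both Myt1l calls were lost without control 1 of the line, with adjusted p = 0.115 and 0.068. The Insm1 call was also lost with Scrublet's threshold (-1.11, adjusted p = 0.054), and the Tead1/2 call with 500 UMIs and 250 genes (-0.83, adjusted p = 0.051).

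St18 did not pass in progenitors. It stood at 476.0 and 487.2 against 495.1, 472.7 and 418.6 in the Insm1 line and at 496.7 and 477.9 against 584.3, 445.9 and 526.1 in the Tead1/2 line, and the groups overlapped. The log2 differences were -0.06 (95% interval -0.26 to 0.15) and 0.07 (-0.13 to 0.27).

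In granule neuron-like cells all 4 genes passed in both lines, where 23.7% and 26.9% of the 14411 genes tested did. Rest stood at 1.43 and 1.21 against 13.5, 18.7 and 21.8 in the Insm1 line and at 0.72 and 1.42 against 17.6, 25.3 and 22.4 in the Tead1/2 line. The controls rest on 7 to 19 UMIs per library and the mutants on 105 to 250. The rise was 12.6-fold (log2 3.66, SE 0.28, edgeR adjusted p = 5.4e-07) and 19-fold (log2 4.25, SE 0.29, edgeR adjusted p = 2.6e-07).

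The share of cells with a Rest UMI moved with these levels. After each cell was thinned to 2000 UMIs, 0.130 to 0.269% of control granule neuron-like cells held one, against 2.55 to 4.25% in Insm1 mutants and 3.45 to 4.69% in Tead1/2 mutants (0.424 to 0.748%, 5.85 to 10.8% and 7.68 to 12.9% before thinning). Thinning left out 26 to 120 of these cells per group. Interneuron-like cells, neurons in which REST is known to be turned down, held a Rest UMI in 0.203 to 0.988% of cells after thinning. The control granule neurons lie at or below that share and are read as background, so the folds above are set against a background level. In progenitor-like cells the thinned share was 1.76 to 2.31% in controls, 8.16 to 11.8% in Insm1 mutants and 5.91 to 8.44% in Tead1/2 mutants.

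Transcripts of other cell types also moved in the granule lineage. The 40 muscle markers summed to 115 to 118 CPM in Insm1 controls and 245 to 301 in Insm1 mutants, and to 117 to 139 and 405 to 1102 in the Tead1/2 line. Myf5, which marks muscle progenitors, was at 0 in both control groups and in Insm1 mutants, whereas all 40 markers had a UMI in Tead1/2 mutants. Astroglia markers summed to 447 to 475 and 499 to 559 in the Insm1 line and to 519 to 522 and 528 to 569 in the Tead1/2 line, and microglia markers to 49.8 to 71.5 and 90.1 to 131, and to 115 to 292 and 82.8 to 219. The part of these transcripts in the changes of Rest was not tested.

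Myt1 fell in granule neuron-like cells from 434.7 and 437.0 to 248.7, 219.7 and 189.2 in the Insm1 line (log2 -1.03, SE 0.12, edgeR adjusted p = 3.1e-05) and from 486.3 and 472.3 to 257.4, 228.7 and 235.5 in the Tead1/2 line (-1.13, SE 0.12, edgeR adjusted p = 1.3e-05). Myt1l fell from 570.0 and 509.3 to 221.4, 207.5 and 159.3 (-1.50, SE 0.25, edgeR adjusted p = 0.00063), and from 694.8 and 603.6 to 298.3, 143.4 and 171.5 (-1.79, SE 0.25, edgeR adjusted p = 0.00013). St18 fell from 1028 and 1103 to 660.3, 683.3 and 639.6 (-0.73, SE 0.10, edgeR adjusted p = 0.00016), and from 1160 and 1062 to 718.0, 604.6 and 661.0 (-0.88, SE 0.10, edgeR adjusted p = 3.0e-05). Summed over the class, no mutant library reached a control level for any of the 3 genes. With 2 controls against 3 mutants per line such a split carries no test, and its share over all genes is not given here. The Myt1 change in the Tead1/2 line was -0.72 with a finer clustering (Leiden resolution 2) and -0.70 with Scrublet's threshold, and was called in both.

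From progenitor-like to neuron-like cells, Rest was lower in the neurons of all 10 libraries. Its level in progenitors was 1.77 to 3.31 times that in neurons of the 6 mutant libraries; the same ratio in the 4 control libraries, 7.40 to 14.8, has a background level as its denominator and depends on 7 to 19 UMIs. St18 was 2.16 to 2.33 times higher in neurons than in progenitors of controls and 1.23 to 1.53 times in mutants. The ratios overlapped for Myt1l (3.58 to 4.16 in controls, 2.41 to 3.86 in mutants) and for Myt1 (4.64 to 5.0 in controls, 3.42 to 7.26 in mutants). These ratios were not tested.

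Control and mutant granule cells lay mostly in different clusters. Clusters 0, 1 and 4 (progenitor-like) and 3 and 6 (neuron-like) held 98.7 to 99.6% of the controls' granule cells, but 13.3 to 33.9% of those of Insm1 mutants and 21.8 to 45.1% of those of Tead1/2 mutants. The rest of the mutant granule cells lay in clusters 2, 5 and 26 (progenitor-like) and 12, 13 and 23 (neuron-like). Among the mutants of each line, library 1, which held all lobules, had the most cells in clusters 0, 1, 3, 4 and 6. Cluster 0 held 287 cells of Insm1 mutant 1, against 103 and 44 of mutants 2 and 3. The Tead1/2 counts there were 339 against 173 and 185. Insm1 and Tead2 are not given by cluster, and whether the mutant cells in clusters 0, 1, 3, 4 and 6 kept the floxed genes was not tested. The values that follow describe the clusters of both kinds and carry no test, since the clusters came from the same cells. Rest, Myt1, Myt1l and St18 were left out of the genes that defined the clusters.

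In the progenitor-like clusters that controls filled, Rest stood at 18.0 to 37.1 in Insm1 mutants against 10.6 to 12 in their controls, but at 11.4 to 14.5 against 10.7 in the Tead1/2 line. In the progenitor-like clusters that mutants filled it stood at 59.1 to 66.9 and 57.4 to 58.4. Neuron-like cells showed the same split, with Rest at 1.26 to 3.02 (Insm1 mutants) and 0.44 to 0.75 (Tead1/2 mutants) in clusters 3 and 6. In clusters 12, 13 and 23 it stood at 18.2 to 24.0 and 25.6 to 29.2. Most of that came from cluster 23, at 50.6 to 60.5 and 42.3 to 43.7, whereas cluster 13 held 6.07 to 13.3 and 9.98 to 10.7.

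Myt1l was lower also in mutant progenitors of the control-filled clusters, at 44.2 to 83.4 against 134.3 to 159.3 in the Insm1 line and at 56.7 to 128.9 against 145.3 to 181.6 in the Tead1/2 line. Myt1 overlapped between genotypes there in the Insm1 line (57.4 to 98.7 against 89.9 to 90.6) and in the Tead1/2 line (71.9 to 98.9 against 97.2 to 101.9). In the mutant-filled progenitor clusters Myt1 was 19.9 to 26.8 in Insm1 mutants and 40.6 to 57.1 in Tead1/2 mutants. St18 in progenitors of the control-filled clusters stood at 666.7 to 742.6 in Tead1/2 mutants against 478.0 to 496.9 in their controls, and at 477.8 to 609.1 in Insm1 mutants against 476.5 to 487.3, which overlapped. In the mutant-filled progenitor clusters it stood at 346.0 to 426.2 in Tead1/2 mutants and 408.2 to 456.9 in Insm1 mutants. The flat St18 level of Tead1/2 progenitors as a whole therefore combined values above and below the controls.

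In the neuron-like clusters that controls filled, 3 and 6, the 3 genes lay nearer to the controls than over the whole class. St18 overlapped between genotypes there, at 886.0 to 1109 in Insm1 mutants against 1030 to 1113 and at 1048 to 1213 in Tead1/2 mutants against 1094 to 1166. Myt1l overlapped in the Insm1 line (391.5 to 510.2 against 504.9 to 570.1) but not in the Tead1/2 line (324.2 to 602.2 against 610.7 to 698.3). Myt1 overlapped in neither line, at 359.8 to 402.0 against 435.8 to 441.3 and at 419.5 to 451.5 against 486.3 to 489.0. In the neuron-like clusters that mutants filled, Myt1 stood at 170.3 to 202.2 and 180.6 to 193.7, Myt1l at 129.8 to 170.0 and 98.2 to 158.3, and St18 at 574.6 to 630.5 and 509.2 to 546.9, in Insm1 and Tead1/2 mutants.

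**Figure D3:**
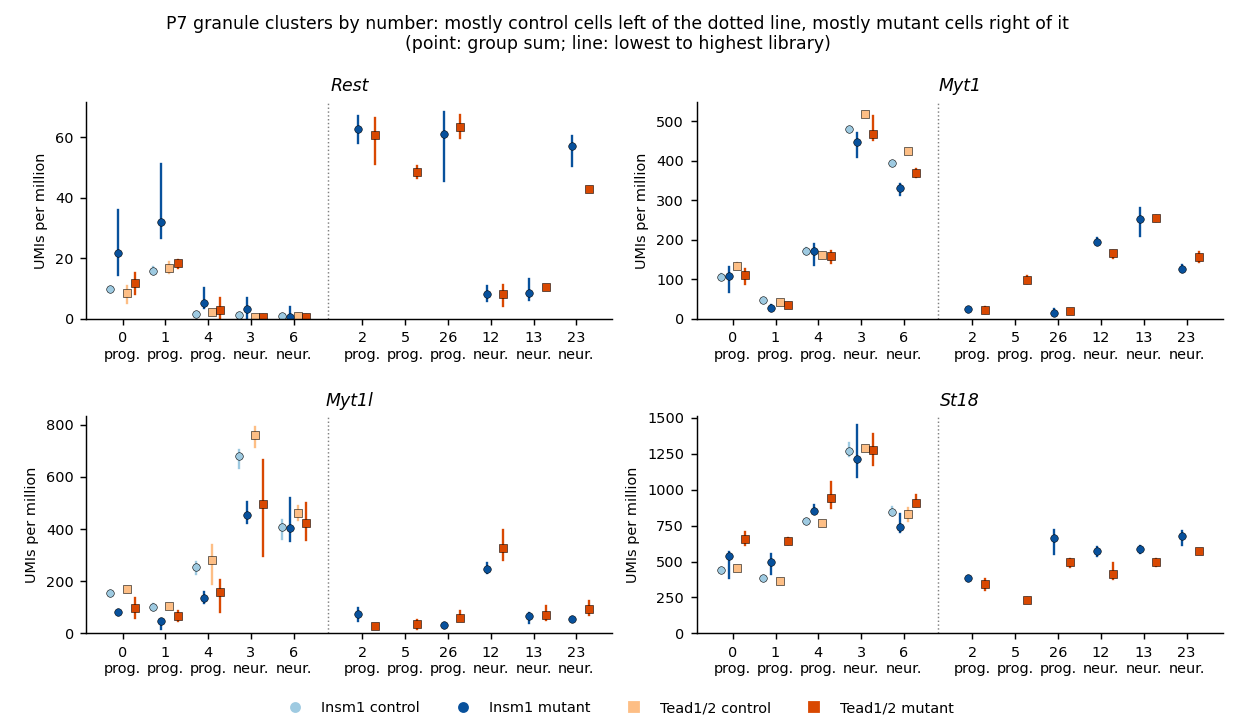
Points give the level of each gene in CPM over all cells of a group in 1 granule cluster and lines the range over its libraries; numbers under the axis are clusters, marked as progenitor-like or neuron-like, and groups with under 100 cells in a cluster are not drawn. Left of the dotted line lie clusters filled mostly by control cells, right of it those filled mostly by mutant cells. Rest stands at 57.1 in Insm1 mutant cells of cluster 23 and at 8.24 and 8.55 in those of the neuron-like clusters 12 and 13.

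The muscle-like class held 8.40 to 9.58% of the kept cells in Insm1 mutants and 13.7 to 17.2% in Tead1/2 mutants, but 5 and 1 cells in the Insm1 controls and none in the Tead1/2 controls, so only the mutants are compared. Rest stood there at 60.7, 73.2 and 66.2 CPM in the Insm1 mutants and at 60.4, 60.9 and 64.7 in the Tead1/2 mutants. These values lay above the pooled granule lineage of the same libraries but overlapped the mutant-filled progenitor clusters (59.1 to 66.9) in the Insm1 line. The lines overlapped, and the log2 difference of 0.03 had a 95% interval, from a normal quantile, of -0.16 to 0.22.

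Myt1 and Myt1l were near the bottom of their range in muscle-like cells and lower in the Tead1/2 line. Myt1 stood at 13.7, 19 and 16.4 in Insm1 mutants and at 8.19, 10.0 and 5.22 in Tead1/2 mutants (log2 difference -0.92, SE 0.25, edgeR adjusted p = 0.027). Myt1l stood at 9.25, 31.4 and 16 against 6.37, 7.86 and 6.01 (-1.38, SE 0.35, edgeR adjusted p = 0.021). Both calls were lost without Insm1 mutant 2, whose cluster 21 supplied 71 muscle-like cells with Myt1l at 181.8; the Myt1l difference then was -0.72 (adjusted p = 0.096). They were also lost without Tead1/2 mutant 1 or 3, and the Myt1 call without Insm1 mutant 3. With Scrublet's threshold both calls were lost as well, and the differences shrank to -0.57 for Myt1 and -0.21 for Myt1l (adjusted p = 0.624 and 0.903). With only the highest 4% of doublet scores removed they were -0.38 and -0.91, and without muscle genes in the clustering that of Myt1l was -0.79; these were called.

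Summed over the muscle-like class, St18 stood at 746.5, 570.7 and 571.2 in Insm1 mutants and was lower in Tead1/2 mutants, at 219.0, 233.0 and 229.5. The lines did not overlap, and the log2 difference was -1.33 (SE 0.11, edgeR adjusted p = 0.00026); with Myt1 and Myt1l this makes 3 of 4 genes called against 18.1% of 13740 genes. With only the highest 4% of doublet scores removed, the St18 difference was -0.30 (adjusted p = 0.0133). The makeup of the class differed with the line: cluster 24 held 17.2 to 20.6% of the muscle-like cells of Insm1 mutants and 39.0 to 47.3% of those of Tead1/2 mutants. Cluster 24 held 39 of the 40 muscle markers above the naming limit, and cluster 18 held 15. St18 stood at 71.8 to 164.3 and 92.8 to 95.1 in cluster 24, which overlapped, and at 1058 to 1116 and 582.3 to 704.1 in cluster 18, which did not. An unnamed cluster, number 25, held 34 of the 40 muscle markers above the naming limit and came almost wholly from mutants. In it Rest stood at 57.3 to 81.4 and 55.2 to 73.2 and St18 at 630.3 to 801.2 and 535.8 to 583.1 in Insm1 and Tead1/2 mutants.

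Outside the granule and muscle-like classes, none of the 4 genes passed in the Insm1 line, where 0.178% of 15767 genes did, and 1 passed in the Tead1/2 line, where 1.64% did. Rest ran from 1.32 to 7.13 in interneuron-like cells of all 10 libraries, from 45.1 to 62.9 in astroglia-like cells and from 65.3 to 116.3 in endothelial-like cells. Over all these cells its log2 difference was 0.05 (95% interval -0.23 to 0.33) in the Insm1 line and 0.16 (-0.11 to 0.43) in the Tead1/2 line. Those of Myt1 were -0.09 (-0.38 to 0.20) and -0.15 (-0.44 to 0.14), and those of St18 were 0.27 (-0.18 to 0.73) and 0.38 (-0.07 to 0.84).

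Myt1l was the gene that passed. It stood at 627.2 and 797.0 in the Tead1/2 controls and at 398.2, 284.1 and 352.9 in the mutants, a log2 change of -1.08 (SE 0.18, edgeR adjusted p = 0.026). In the Insm1 line it stood at 759.5 and 641.5 against 597.9, 588.6 and 446.6, and the log2 difference of -0.37 did not pass (edgeR adjusted p = 0.452). In the Tead1/2 line, interneuron-like cells, where Myt1l is highest, were 42.1 to 50.9% of these cells in the controls and 25 to 34.7% in the mutants. In interneuron-like cells alone Myt1l stood at 1707 and 1746 against 1333, 1261 and 1380, and the change was -0.41 (SE 0.08, edgeR adjusted p = 0.0142, with 0.719% of genes called). The call over all other cells was lost without either control or without mutant 2 or 3, with adjusted p up to 0.295, and with the replicate number as a block (adjusted p = 0.097). It held at -0.71 with the highest 4% of doublet scores removed (adjusted p = 0.0204).

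Single classes outside the lineage showed 3 further changes in the Insm1 line. The fits of single classes were not among the planned tests. In astroglia-like cells Myt1 fell from 18.6 and 18.8 to 3.37, 6.16 and 5.20 (log2 -1.91, SE 0.34, edgeR adjusted p = 0.0116), and Myt1l from 100.3 and 77.1 to 59.4, 61.6 and 57.6 (-0.60, SE 0.13, edgeR adjusted p = 0.0367), with 0.823% of genes called. In the Tead1/2 line both went the same way but did not pass (log2 -0.71 and -0.52, edgeR adjusted p = 0.487 and 0.107). The median Myt1 level of astroglia-like cells over all libraries was 7.30 CPM. With only the highest 4% of doublet scores removed it was 85.1. The part of granule transcripts in these changes was not tested. In oligodendrocyte lineage-like cells St18 rose from 216.1 and 211.1 to 622.1, 1405 and 818.8 (log2 2.20, SE 0.31, edgeR adjusted p = 0.0025, with 1.16% of genes called). Cluster 19, with St18 at 1922 to 3236, supplied 109 of the 313 oligodendrocyte lineage-like cells of Insm1 mutants, and the other one, cluster 11, supplied 114 of the 132 in their controls. Cluster 11 held St18 at 31.3 to 92.8 in the controls and 18.6 to 52.8 in the mutants, which overlapped.

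At P2, in RNA of the whole cerebellum, Rest, Myt1 and St18 differed in the same direction as in the P7 granule lineage. The differences were smaller than there for Rest and Myt1 and larger for St18, which was not tested. Myt1l was lower in the Tead1/2 mutants. In the Insm1 line its difference of -0.04 changed sign without control 4 or without mutant 1. Only St18 in the Insm1 line passed. That is 1 of 4 genes against 0.689% of 19582 genes in the Insm1 line; in the Tead1/2 line none of the 4 passed, as did 0% of 20247 genes (4052 had an unadjusted p under 0.05, and DESeq2 called 960). In bulk samples fewer cells of a type and less RNA per cell cannot be told apart. Values are CPM scaled by edgeR's TMM factors over all 15 libraries. Groups without overlap are again only described, and the share of all genes with such a split is not given. The Insm1 libraries carry batch number 2 in the labels and the Tead1/2 libraries batch number 3, so line and batch cannot be told apart between lines.

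St18 measured 76.4, 78.1, 86.1 and 84.4 CPM in controls of the Insm1 line (mean 81.2 ± 4.71 SD, n = 4) and at 57.0, 52.7, 56.0 and 56.2 in the mutants (55.5 ± 1.88). The groups did not overlap. The log2 change was -0.54 (SE 0.06, edgeR adjusted p = 0.0035), and the call was lost when all 15 libraries shared 1 fit (adjusted p = 0.119). In the Tead1/2 line St18 stood at 80.1, 82.6 and 83.2 in the controls and at 45.4, 47.5 and 51.7 in mutants 1 to 3, but at 85.1 in the library labelled Tead1/2 mutant 4. With all libraries the change was -0.55 (SE 0.18, edgeR adjusted p = 0.15), and without that library -0.80 (edgeR adjusted p = 0.00018).

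Myt1 measured 88.2, 78.9, 94.9 and 89.9 CPM in controls of the Insm1 line and at 66.6, 67.4, 74.2 and 69.4 in the mutants. The groups did not overlap, but the log2 change of -0.33 (SE 0.07) did not pass (edgeR adjusted p = 0.081). In the Tead1/2 line it stood at 90.4, 93.5 and 85.0 in the controls and at 55.9, 58.5, 64.6 and 90.6 in the mutants (-0.45, SE 0.14, edgeR adjusted p = 0.134); without mutant 4 the change was -0.62 (edgeR adjusted p = 0.00105).

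Rest measured 34.9, 31.8, 31.6 and 33.6 CPM in controls of the Insm1 line (33.0 ± 1.60 SD, n = 4) and at 37.5, 42.9, 41.7 and 42.3 in the mutants (41.1 ± 2.46). Every mutant lay above every control, but the log2 difference of 0.33 (SE 0.07) did not pass (edgeR adjusted p = 0.063). In the Tead1/2 line Rest stood at 33.4, 35 and 30.5 against 38.8, 43.7, 44.0 and 30.2 (0.22, SE 0.11, edgeR adjusted p = 0.304); without mutant 4 the difference was 0.32 (edgeR adjusted p = 0.029).

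Myt1l measured 142.4, 133.6, 129.6 and 153.6 CPM in controls of the Insm1 line and at 119.1, 151.3, 132.5 and 136.3 in the mutants, which overlapped (log2 difference -0.04, 95% interval -0.21 to 0.13). In the Tead1/2 line it stood at 143.5, 140.4 and 137.2 against 107.9, 110.9, 118.4 and 135.6 (-0.28, SE 0.07, edgeR adjusted p = 0.106); without mutant 4 the difference was -0.35 (edgeR adjusted p = 0.011). The difference between the lines passed for none of the 4 genes at P2, nor for any gene tested (0% of 20837; 1435 had an unadjusted p under 0.05, and DESeq2 called 17).

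**Figure D4:**
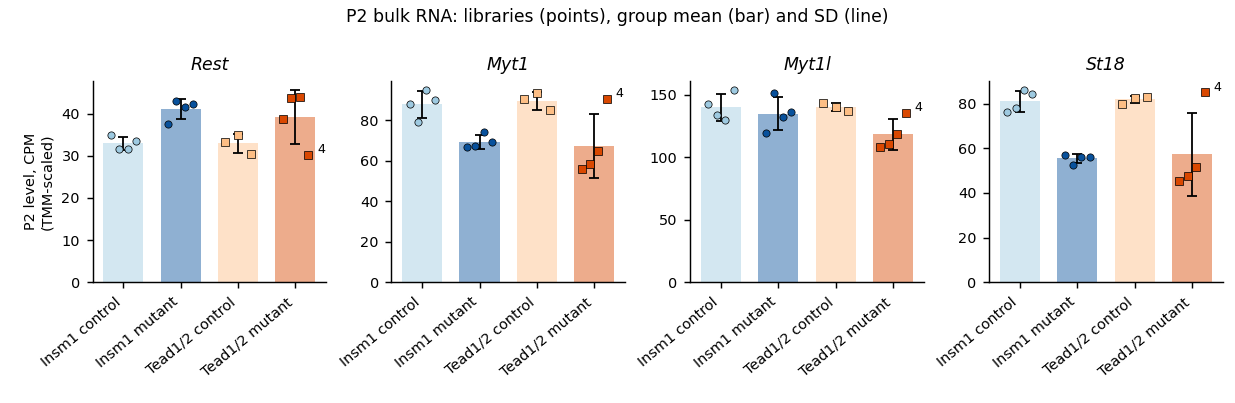
Bars give the mean and lines the SD of TMM-scaled CPM at P2, and points the single libraries; the library labelled Tead1/2 mutant 4 is marked with its number. That library sits with the controls for St18 (85.1), Myt1 (90.6) and Rest (30.2).

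REST target genes were taken as 30 genes with known RE1 elements. Of 28 tested in the granule lineage, 13 fell and 2 rose in the Insm1 line (median log2 change -0.36, against 0.01 over all genes), where 7.13% of all genes fell and 11.4% rose. For the Tead1/2 line the counts were 12 and 4 (median -0.19, against -0.00), where 7.96% of all genes fell and 12% rose. The other 13 and 12 targets did not pass. In progenitor-like cells 19 of 25 fell and none rose in the Insm1 line (median -1.02), and 11 fell and 2 rose in the Tead1/2 line (median -0.46), beside 6.81% and 7.52% of all genes that fell and 8.34% and 9.99% that rose. In neuron-like cells 12 of 26 fell and 3 rose in the Insm1 line (median -0.27), and 18 fell and 4 rose in the Tead1/2 line (median -0.36), beside 9.76% and 11.5% of all genes that fell and 13.9% and 15.4% that rose. None of 29 passed at P2 in either line (medians -0.08 and -0.18), where 0.689% and 0% of all genes did. Without the library labelled Tead1/2 mutant 4, 646 genes were called in the Tead1/2 line, and the targets are not given for that fit. In the other cells at P7 none of 25 passed in the Insm1 line, where 0.178% of all genes did. In the Tead1/2 line 3 (Unc13a, Tubb3 and Srrm4) fell, where 0.958% of all genes fell. The interneuron-like share of the other cells in that line was 42.1 to 50.9% in controls and 25 to 34.7% in mutants. Its part in these 3 changes was not tested. Between the muscle-like cells of the 2 lines 3 of 19 differed, 15.8% of the list against 18.1% of all genes, which is near the background.

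In the granule lineage Scg2, which encodes a secretory granule protein, fell most, from 12.6 and 13.8 CPM to 3.03 to 5.05 in the Insm1 line and from 14.6 and 14.8 to 4.00 to 5.37 in the Tead1/2 line. The log2 change was -1.79 and -1.72. Other targets rose. Grin1, an NMDA receptor subunit gene, went from 12.5 and 12.7 to 43.4 to 61.5 in the Insm1 line and from 9.06 and 12.4 to 33.1 to 47.7 in the Tead1/2 line (log2 2.12 and 1.81). Syt4, a synaptotagmin gene, rose by 1.37 and 1.12 on the log2 scale but fell in Insm1 mutant progenitors by 1.94. Scn3b, a sodium channel subunit gene, rose in the Tead1/2 line (log2 1.00) and did not pass in the Insm1 line (0.42, adjusted p = 0.095).

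Sequence is shown for the target that fell most in the granule lineage and for the 2 members that the RefSeq promoter table of GRCm38.p6 holds. It lists 3 promoters for Myt1 and 5 for Myt1l. The stretch shown for each comes from a promoter with a match, and the other promoters of these genes are not described here. Promoters of 300 bases, from 250 before to 50 after the start, were searched on both strands for CAGCACC and GGACAGC (parts of RE1), CATTCC (bound by TEAD proteins) and AAGTT (the core bound by the MYT1 family). Matches are in capitals, and no base shown belongs to 2 matches. In the Scg2 stretch (chr1:79440027-79440146, minus strand, the 120 bases before the start) the matches are the reverse complements of the TEAD motif, the second RE1 part and the first RE1 part, in this order. In the Myt1 stretch (chr2:181763212-181763331, plus strand, the 120 bases before the start) the match is AAGTT, and in the Myt1l stretch (chr12:29534761-29534790, plus strand, 144 to 115 bases before a start) it is GGACAGC.
Scg2: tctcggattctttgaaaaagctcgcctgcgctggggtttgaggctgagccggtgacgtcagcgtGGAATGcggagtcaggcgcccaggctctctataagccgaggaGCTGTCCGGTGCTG
Myt1: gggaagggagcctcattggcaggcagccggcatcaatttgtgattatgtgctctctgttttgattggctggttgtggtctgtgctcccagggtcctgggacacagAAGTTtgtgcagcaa
Myt1l: tattgcttaaaGGACAGCagcccgcccgag
Of all 32851 promoters in the table, 7.14% hold CAGCACC, 6.56% GGACAGC, 14.7% CATTCC and 39.3% AAGTT. Of the 30 target genes 21 matched the table, with 31 promoters. Of these promoters 22.6, 16.1, 25.8 and 32.3% held the motif, in the same order, so the share with AAGTT lay below that of all promoters. A match describes letters and is not evidence of binding.

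REST cofactors and regulators were 17 genes, all tested. In the granule lineage 4 rose and 3 fell in the Insm1 line (median 0.06), 41.2% of the list against 18.5% of all genes. The Tead1/2 line had 2 that rose and 2 that fell (median 0.01), 23.5% against 20%, which is near the background. Prickle1, whose product is reported to carry REST out of the nucleus, rose most, from 16.8 and 17.3 CPM to 54.6 to 64.9 in the Insm1 line (log2 1.81) and from 15.3 and 16.6 to 40.9 to 46.1 in the Tead1/2 line (1.41). It reached 265.0 to 288.8 and 310.8 to 338.9 in muscle-like cells of the 2 lines. Ctdsp2, which encodes a phosphatase that acts with REST, rose by 0.76 and 0.49 on the log2 scale.

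Rcor2, a CoREST gene, fell from 112.3 and 113.8 to 70.8 to 74.7 (log2 -0.62) and from 115.4 and 126.1 to 71.5 to 79.6 (-0.72). It also fell at P2 in the Insm1 line (-0.40, edgeR adjusted p = 0.0325). Ctdspl, another phosphatase gene, fell by 0.26 and 0.53 on the log2 scale. Hdac1 (0.43) and Cdyl (0.38) rose and Kdm1a (-0.23) fell in the Insm1 line and did not pass in the Tead1/2 line, and none of these differed between the lines by the test of the difference.

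Notch pathway genes include genes that the MYT1 family is known to repress. Of 12 tested in the granule lineage, 8 rose and 1 fell in the Insm1 line (median log2 change 1.66), where 11.4% of all genes rose, and 7 rose and 1 fell in the Tead1/2 line (median 0.98), where 12% rose. The other 3 and 4 did not pass. Dll1, a Notch ligand gene, went from 0.28 and 0.63 CPM to 5.22 to 7.27 (log2 3.68) and from 0.18 and 0.39 to 9.23 to 10.0 (5.10), on 5 to 18 UMIs per control library. Jag1, another ligand gene, went from 3.18 and 4.83 to 33.4 to 54.2 (3.56) and from 5.21 and 5.72 to 77.9 to 115.3 (4.06), and it also rose at P2 in the Insm1 line (0.80, edgeR adjusted p = 0.0103). The receptor gene Notch1 rose by 2.51 and 2.27 and the target gene Hes1 by 3.02 and 1.91 on the log2 scale. Hey1, also a Notch target, fell in both lines, by 0.82 and 1.71 on the log2 scale. None of 13 Notch pathway genes passed in the other cells of either line, where 0.178% (Insm1) and 1.64% (Tead1/2) of all genes did.

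Dll1 and Notch1 are also expressed in muscle-like cells, at 76.5 to 84.7 and 166.6 to 242.0 in Insm1 mutants and at 49.95 to 55.5 and 94.6 to 112.2 in Tead1/2 mutants. The part of muscle transcripts in the granule values of these genes was not tested.

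**Figure D5:**
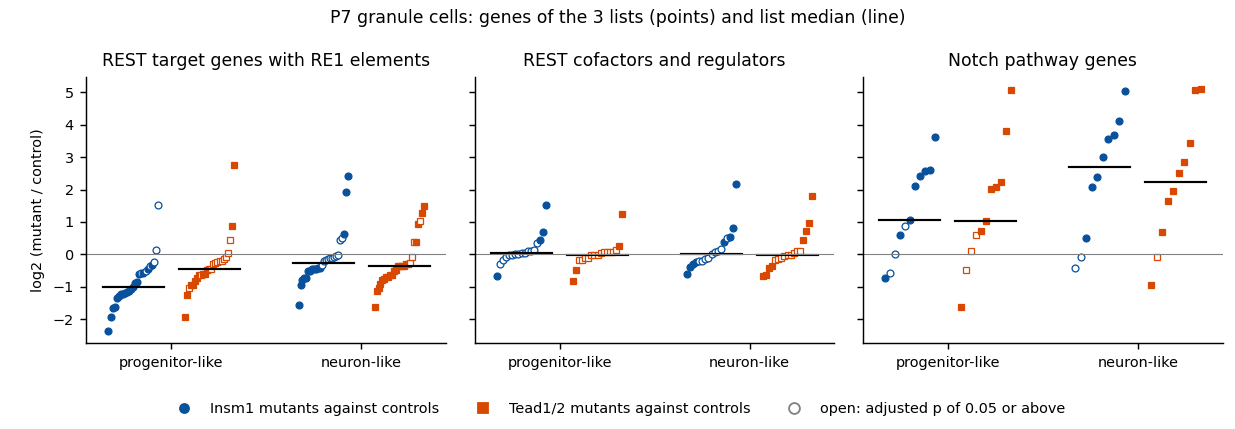
Each point is 1 gene of a list (panels), with its log2 change of mutants against controls in granule progenitor-like and granule neuron-like cells; black lines give the list median and filled points passed an adjusted p of 0.05. The REST target median lies at -1.02 in Insm1 mutant progenitors, the cofactor medians near 0, and the Notch medians between 1.03 and 2.7.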

How the data were processed

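The analysis used the P2 bulk RNA-seq of 15 cerebella and the P7 single-cell data of 10 libraries; the ATAC-seq and CUT&RUN samples of the study were not analysed here. The deposited P2 tables hold expected counts per gene, which the authors made with STAR 2.7.9a and RSEM 1.3.3 among other tools on GRCm38.p6, per the submitters' processing notes. In each deposited P2 table the columns belong to the other line than the table's name says, and columns were matched to samples by their own names. The expected counts were rounded to whole numbers (7.35 to 8.06% of values were not whole), and 92 spike-in rows were left out. The deposited P7 matrices hold counts of UMIs per gene and barcode.

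P7 barcodes had to hold 1000 UMIs or more, 500 genes or more and no more than 15% mitochondrial UMIs. Scrublet's own doublet threshold marked at most 1 barcode in 3 libraries and 36.4 to 55.3% in the other 7, so all barcodes with a score above 0.05 were removed (26.6 to 48.6% per library); this limit was chosen after the scores were seen. The removed barcodes had a median of 17430 to 27458 UMIs per library, against 4464 to 7832 in kept cells, and whether single cells rich in RNA were among them was not tested. The kept cells were clustered with scanpy 1.11.5 (2000 variable genes, 30 components, 15 neighbours, Leiden resolution 1.0, 28 clusters) and named by marker genes. Rest, Myt1, Myt1l and St18 were left out of the variable genes. A name needed at least 3 markers at 1.5 times the mean over clusters, and no conflict among the top 10 genes; 3749 cells stayed unnamed. Other cells are all named cells outside the granule and muscle-like classes. Counts were summed per library and class.

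Tests used edgeR 4.0.16 (TMM, filterByExpr, quasi-likelihood test, Benjamini-Hochberg adjustment over all genes tested, called under 0.05) in R 4.3.3, with DESeq2 1.42.0 as an alternative, and the scripts were tested on simulated data. P2 lines were fitted separately and P7 lines in 1 fit. Libraries are separate animals. No 2 libraries agreed within sampling noise (chi-square per degree of freedom 6.25 to 82.0). Beside the 4 members, the genes named are the deleted genes, up to 4 called genes of each list with the largest change in the granule lineage, and the 5 genes closest to each member over control classes (1 of them is not reported here); Hey1, Hdac1, Cdyl, Kdm1a, Unc13a, Tubb3, Srrm4 and Scn2a were named after their values were seen. The members and gene lists were chosen with earlier results of these data known.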

Additional observations from a re-analysis of the deposited data

Results flagged for a closer look

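St18 stood at 85.1 CPM in the P2 library labelled Tead1/2 mutant 4, far from the 45.4, 47.5 and 51.7 of the other 3 mutants. It was the 1 outlying library found in 21 groups tested, and chance alone marks about 1 in 20 such groups. The same library stood near the controls in other values too. Its 40 muscle markers summed to 79.2 CPM, against 79.6 to 86.8 in the controls and 260.8 to 341.5 in the other 3 mutants. In the granule lineage at P7, the change of Scn2a, a sodium channel gene of the REST target list, differed between the lines by 0.71 on the log2 scale (edgeR adjusted p = 0.0474). Scn2a stood at 43.3 and 46.7 CPM in Insm1 controls and at 38 to 48.1 in their mutants, and at 16.9 and 17.7 against 26.3 to 29.6 in the Tead1/2 line. Its log2 change was -0.07 in the Insm1 line (edgeR adjusted p = 0.708) and 0.64 in the Tead1/2 line (edgeR adjusted p = 0.00081).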

How the results depend on the processing

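For the 4 members, 926 of the recomputed values kept their direction and their side of the threshold, 35 lost a call and 24 gained one. Another 37 changed sign, and none of these passed the test in either fit. At P2 in the Insm1 line, DESeq2 also called Rest (adjusted p = 0.0030) and Myt1 (adjusted p = 0.0038), edgeR without a low-count filter Myt1 (adjusted p = 0.0478) and edgeR without Insm1 mutant 1 Rest (adjusted p = 0.0241). For the Tead1/2 line, edgeR without a filter called Myt1, Myt1l and St18 (adjusted p = 0.00016, 0.0107 and 4.0e-05), the replicate block Myt1 and St18 (adjusted p = 0.0082 and 0.0013) and DESeq2 Myt1l (adjusted p = 0.0125). With Scrublet's own threshold the calls of Myt1 and Myt1l in Insm1 progenitors (log2 -1.11 for both, adjusted p = 0.060 and 0.054), of Myt1l in the other Tead1/2 cells (adjusted p = 0.599) and of both between muscle-like cells (log2 -0.57 and -0.21, adjusted p = 0.624 and 0.903) were lost. With at least 500 UMIs and 250 genes per barcode in place of 1000 and 500, both changed together, Myt1 (adjusted p = 0.178) and Myt1l (adjusted p = 0.051) lost their call in Tead1/2 progenitors, Myt1l lost it in the other Tead1/2 cells (adjusted p = 0.121) and St18 gained one in these progenitors (log2 0.31, adjusted p = 0.032). Naming clusters with tied top genes ended the Myt1 call in Tead1/2 progenitors (log2 -0.35, adjusted p = 0.056). Removing only the highest 4% of doublet scores added Rest (log2 0.96 and 0.57) and Myt1 (log2 -0.81 and -0.65, adjusted p = 0.0011 and 0.0042) in the other cells of both lines, and it raised the median level of Myt1l in microglia-like cells from 7.14 to 184 CPM. No filter added Myt1l in the other Insm1 cells (adjusted p = 0.0192) and St18 in the other Tead1/2 cells (adjusted p = 0.0054). The dissection as a term, added after the data were seen, changed no call of the 4 members; it left 3 genes in the other Insm1 cells and 87 in the other Tead1/2 cells.

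The sign changes, as log2 differences that did not pass, were these. In the other Insm1 cells Rest (0.05) became -0.057 with Scrublet's threshold and -0.21 with 500 UMIs and 250 genes, and St18 (0.27) became -0.33 with the highest 4% removed, -0.23 with 500 UMIs and 250 genes, -0.12 in interneuron-like and -0.23 in astroglia-like cells alone. In the other Tead1/2 cells Rest (0.16) became -0.38 in oligodendrocyte lineage-like cells alone and St18 (0.38) -0.13 with the highest 4% removed. Between muscle-like cells Rest (0.03) became -0.041 with Scrublet's threshold, -0.018 at Leiden resolution 2 and -0.019 with tied clusters named. In progenitors St18 (-0.06) became 0.0069 with Scrublet's threshold and 0.0002 at resolution 2 in the Insm1 line, and (0.07) -0.11 with Scrublet's threshold and -0.0195 with the highest 4% removed in the Tead1/2 line. Its P2 difference between lines (-0.0039) became 0.0011 with DESeq2 and 0.034 without a filter. Leaving out 1 library gave -0.016 to 0.14 for Rest in the other Insm1 cells, -0.041 to 0.12 for Rest between muscle-like cells, -0.21 to 0.019 and -0.30 to 0.034 for Myt1 in the other Insm1 and Tead1/2 cells, and -0.10 to 0.013 for Myt1l at P2 in the Insm1 line. For the difference between lines it gave -0.50 to 0.018 (Myt1l) and -0.008 to 0.14 (St18) in the granule lineage and -0.25 to 0.085 (St18) at P2. For St18 in progenitors it gave -0.11 to 0.013 in the Insm1 line and -0.025 to 0.18 in the Tead1/2 line.

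Counts of genes called moved as follows; the cause was not tested. In the P2 Insm1 line the count of 135 became 312 with DESeq2, 212 without a low-count filter and 64 to 132 without 1 library. In the P2 Tead1/2 line, 0 became 960 with DESeq2, 1287 without a filter, 4 with all 15 libraries in 1 fit and 0 to 646 without 1 library, the highest without mutant 4. The P2 difference between lines went from 0 to 17 with DESeq2, 11 without a filter and 0 to 8 without 1 library. At P7, leaving out 1 library gave 1938 to 3544 genes in the granule lineage of the Insm1 line (3051 with all), 2049 to 3718 in the Tead1/2 line (3284) and 43 to 211 for their difference (139; 251 with DESeq2, 598 without a filter). The lowest counts came without Insm1 control 2, Tead1/2 control 1 and Insm1 control 1, in this order. Leaving out 1 library gave 1394 to 2640 (2250) and 1605 to 3019 (2600) in progenitors and 2059 to 3742 (3412) and 2443 to 4254 (3880; 2258 with Scrublet's threshold) in neurons. The other cells of the Insm1 line gave 28 genes, 0 to 35 without 1 library, 209 with DESeq2, 1010 without a filter, 0 with Scrublet's threshold, 3421 with the highest 4% removed, 0 with at least 500 UMIs and 250 genes, 97 in astroglia-like and 104 in oligodendrocyte lineage-like cells alone. Those of the Tead1/2 line gave 258, and 2 to 564, 649, 1588, 0, 3164 and 1 under the same settings, with 78 in interneuron-like, 168 in astroglia-like and 0 in oligodendrocyte lineage-like cells alone. Between muscle-like cells 2483 became 1609 with Scrublet's threshold, 6018 with the highest 4% removed and 1226 to 2490 without 1 library, lowest without Tead1/2 mutant 1.

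At P2, libraries of the same number deviated from their group means with correlations of -0.13 to 0.28, not all above 0.1, and were not treated as pairs. At P7 the correlations were -0.13 to 0.07, but with 2 controls per line those of control 1 and control 2 mirror each other, so they show neither pairing nor its absence. Number 1 is also tied to the dissection there. With the replicate number as a block, 64 genes were called at P2 in the Insm1 line, 236 in the Tead1/2 line, where mutant 4 has no control of its number, and 1 for the difference; in the other cells at P7 the block left 2 and 0, and Myt1l lost its call in the Tead1/2 line (adjusted p = 0.097). Depth limits Rest in control granule neurons, which rests on 7 to 19 UMIs per library.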
